A study of Mus musculus with 6 samples.

Results

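The RUNX transcription factors Runx1, Runx2 and Runx3 and their shared partner Cbfb were followed in sorted mouse microglia from WT and IRF8KO animals. The 4 genes were taken by name as a family, out of 49585 genes listed in the count tables, and all 4 were among the 11041 genes with enough counts to enter the test across genes. They were picked because earlier results on these libraries had shown which RUNX gene each genotype carried. Their values in IRF8KO against WT are therefore given as a description, without a p-value.

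RUNX proteins bind DNA through a conserved Runt domain, at sites that read TGTGGT or TGCGGT, and act as activators or repressors according to the proteins they meet there. CBFβ, the product of Cbfb, does not touch DNA itself but pairs with any RUNX protein, strengthens its hold on DNA and protects it from breakdown. Runx1 is known for the making of blood stem cells and for myeloid and lymphoid genes, Runx2 for bone and cartilage, and Runx3 for CD8 T cells, natural killer cells, dendritic cells and sensory neurons. Microglia, the macrophages of the brain parenchyma, are known to use Runx1 during development.

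Poly(A) RNA was sequenced from 3 WT and 3 IRF8KO mice, all male and 3 months old, with 1 library from each brain. The cells were freed from the tissue without enzymes, sorted by flow cytometry into TRIzol, and turned into libraries with SMART-Seq v4 and Nextera XT, which keep neither strand nor molecular identifiers. IRF8 is a transcription factor of myeloid cells, and no treatment is recorded. How the knockout was made, in which cells it acts, the strain, and the gate of the sort are not given in the labels. In such bulk samples fewer cells of a type and less RNA per cell cannot be told apart.

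The starts of the 3 RUNX genes (the distal one where RefSeq lists a pair) shared a stretch of sequence that holds their own binding letters, and it is printed because Runx2 and Runx3, which were both nearly absent from WT, carry it as Runx1 does. The stretches below are from RefSeq promoters on build GRCm38.p6, each 30 bases long and written 5′ to 3′ on the gene's strand. Capitals mark TGTGGT or TGCGGT in either orientation (TGTGGT reads ACCACA on the other strand). The Runx1 stretch lies at chr16:92826025-92826054 on the minus strand, from base 21 to base 50 of the transcript that starts at the distal promoter. The Runx2 stretch lies at chr17:44814583-44814612 on the minus strand, from base 16 to base 45 of the transcript. The Runx3 stretch lies at chr4:135120503-135120532 on the plus strand, from base -142 to base -113 before the distal start.
Runx1: cataaacaACCACAgaACCACAagttgggt
Runx2: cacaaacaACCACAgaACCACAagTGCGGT
Runx3: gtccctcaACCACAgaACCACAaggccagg

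The run common to all 3, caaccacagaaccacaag, is 18 bases long and holds 2 copies of the RUNX letters. It occurred in 4 of 32851 promoter windows of 300 bases (250 before and 50 after a start; windows on 1 chromosome were not used here), or 0.0122%. The fourth window belongs to Gm16225 and overlaps that of Runx3 on the opposite strand. For comparison, TGTGGT occurred on either strand in 16.8% of all windows and at least 2 copies in 1.81%. RefSeq gave 6 windows for the 4 genes. TGTGGT was found 2 times at the distal start of Runx1, 3 times at the Runx2 start and 2 times at the distal start of Runx3, and 0 times at the proximal starts of Runx1 and Runx3 and at the start of Cbfb. TGCGGT, present in 6.45% of all windows, was found once among the 6, at Runx2. The 150 bases before the distal start of Runx3, chr4:135120495-135120644 on the plus strand, are shown whole with the same capitals, because Runx3 led the RUNX level in IRF8KO.
Runx3: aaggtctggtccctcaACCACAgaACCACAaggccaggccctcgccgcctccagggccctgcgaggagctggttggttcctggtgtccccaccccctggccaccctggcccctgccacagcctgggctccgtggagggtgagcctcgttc

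Letters of IRF and PU.1 sites were searched in the same 6 windows, on both strands. A GAAA followed by another after any 2 bases, the repeat that IRF proteins bind, was in 3.44% of all windows and in 0 of the 6. GGAA followed by GAAA after any 2 bases, the composite letters for PU.1 with an IRF protein, was in 2.72% of all windows and in 0 of the 6. GAGGAAGT, a PU.1 site, was in 3.20% of all windows and occurred once among the 6, at base 3 of Cbfb. A match is a description of the letters only, and counts over whole genes do not tell which start was used.

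Each library held between 3658917 and 11098363 counts in genes. Levels are given as CPM, counts for each 1000000 of a library after TMM scaling. Irf8 itself (chromosome 8, 120736358 to 120756694, plus strand) had 795, 851 and 1403 CPM in WT replicates 1, 2 and 3 and 743, 650 and 850 CPM in IRF8KO replicates 1, 2 and 3, so the groups overlapped. Its log2 fold change was -0.44 (SE 0.33, adjusted p = 0.368 in edgeR's quasi-likelihood test with Benjamini-Hochberg adjustment), and a count over the whole gene cannot show a lost exon. Genotype is thus taken from the labels alone. WT replicate 3 stood apart from the other WT libraries. Its correlations with WT replicates 1 and 2 across genes were lower (0.905 and 0.910) than theirs with each other (0.974), and its difference from them rose with gene GC content (Spearman 0.622 over 11034 genes, which are not independent replicates). Fold changes of Runx1 and Cbfb are therefore given with and without it. Of the marker lists, IRF8KO replicate 2 held most of the neutrophil counts, with a summed level of 358 CPM for 9 neutrophil genes.

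Runx1, the family member of blood and myeloid cells (ENSMUSG00000022952, chromosome 16, 92601466 to 92826149, minus strand), was found in every library. It had 67.3, 64.6 and 19.0 CPM in WT replicates 1, 2 and 3, from 346, 912 and 138 counts. It had 14.6, 29.0 and 22.2 CPM in IRF8KO replicates 1, 2 and 3, from 91, 323 and 205 counts. WT replicates 1 and 2 lay above all IRF8KO libraries, while WT replicate 3 fell among them, so the groups overlapped. The means were 50.3 ± 27.1 and 21.9 ± 7.19 CPM (SD, n = 3 each), with a log2 fold change of -1.19 (SE 0.45) in the fit across all genes, whose median was -0.11. Leaving out WT replicate 3 set the WT mean at 65.9 CPM (n = 2) and the log2 fold change at -1.52.

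Runx3, best known from lymphocytes and dendritic cells (ENSMUSG00000070691, chromosome 4, 135120652 to 135177990, plus strand), was all but missing from WT. WT replicates 1, 2 and 3 had 0, 1 and 0 counts, where a count of 0 allows up to 0.584 CPM in WT replicate 1 and 0.414 CPM in WT replicate 3 (3 counts, a one-sided limit; the two-sided interval drawn in the plot of CPM by library reaches 0.718 and 0.509 CPM). IRF8KO replicates 1, 2 and 3 had 75.6, 53.9 and 51.1 CPM, from 471, 601 and 471 counts. Every IRF8KO library was thus far above every WT library. The mean in IRF8KO was 60.2 ± 13.4 CPM (SD, n = 3), and the scaled counts pooled over libraries were 1539 times those in WT (exact 95% counting interval 276 to 60808.5). Such intervals cover counting error only, since PCR copies could not be removed. The ratio of the group means was 2551. Leaving out WT replicate 2, the only WT library with a count, moved the fitted log2 fold change from 10.20 to 11.87. Ranked per length among tested genes, Runx3 stood at the 0.390 percentile in WT and at the 74.2 percentile in IRF8KO.

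Runx2, the osteoblast factor (ENSMUSG00000039153, chromosome 17, 44495987 to 44814797, minus strand), was also near 0 in WT but reached a lower level than Runx3 in IRF8KO. It had 4, 1 and 0 counts in WT replicates 1, 2 and 3, or 0.778, 0.0708 and 0 CPM. It had 32, 120 and 87 counts in IRF8KO replicates 1, 2 and 3, or 5.14, 10.8 and 9.44 CPM. The groups did not overlap, and IRF8KO replicate 1, which was highest in Runx3, was lowest in Runx2. The means were 0.283 ± 0.430 and 8.45 ± 2.94 CPM (SD, n = 3 each), a ratio of 29.8. Pooled over the libraries of a group, which gives deeper libraries more weight, the scaled counts in IRF8KO were 47.7 times those in WT (exact 95% counting interval 20.1 to 148). The fitted log2 fold change of 5.18 (SE 0.99) was 7.18 without WT replicate 1, which held 4 of the 5 WT counts, and 4.53 without WT replicate 2.

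Cbfb, which encodes the partner of all 3 (ENSMUSG00000031885, chromosome 8, 105170674 to 105217989, plus strand), was found in every library at a low level. WT replicates 1, 2 and 3 had 14.6, 12.5 and 3.86 CPM, from 75, 176 and 28 counts. IRF8KO replicates 1, 2 and 3 had 3.05, 4.67 and 4.01 CPM, from 19, 52 and 37 counts. As for Runx1, WT replicates 1 and 2 were high and WT replicate 3 sat within the IRF8KO range. The means were 10.3 ± 5.68 and 3.91 ± 0.813 CPM (SD, n = 3 each), with a log2 fold change of -1.39 (SE 0.57), or -1.73 without WT replicate 3. Cbfb has the lowest GC content of the 4, at 42.5% against a median of 50.1% for tested genes, and a fit with an offset for GC and length put the log2 fold change at -0.49. The same offset gave -0.93 for Runx1 and 5.25 for Runx2.

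In all, 2 of the 4 members, Runx2 and Runx3, had no overlap between the groups, both higher in IRF8KO. Among all tested genes 37.9% had no overlap between the groups, 20% in the higher direction and 17.9% in the lower. The members were picked on these values, so nothing is read from that count, and Runx2 and Runx3 passed the filter on low counts through IRF8KO alone.

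**Figure D1:**
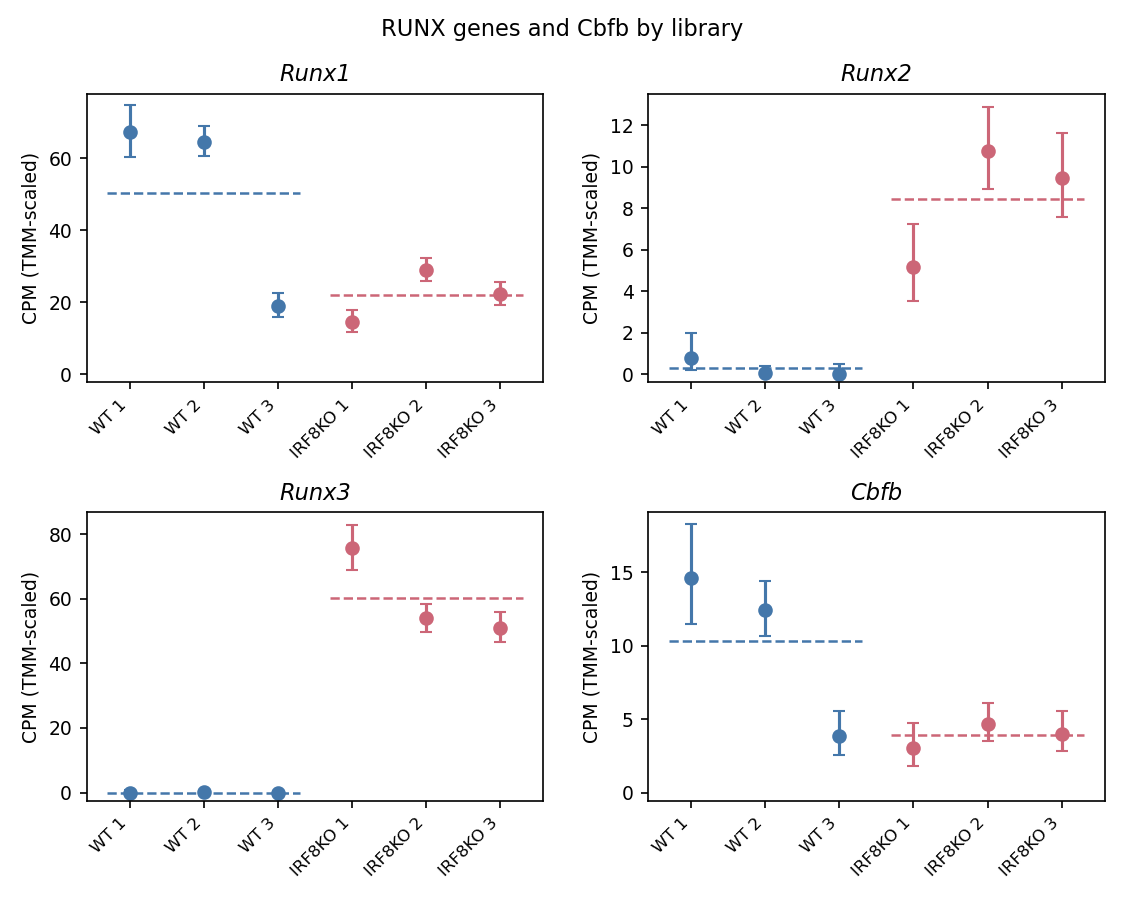
Level of each RUNX gene and of Cbfb in the 6 libraries, in CPM on a linear axis that differs between panels. Points are libraries (WT blue, IRF8KO red), bars are exact 95% counting intervals and dashed lines are group means. Runx3 lies between 51.1 and 75.6 CPM in IRF8KO and at or near 0 in WT, while WT replicate 3 lies within the IRF8KO range for Runx1 and Cbfb.

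Levels of different genes were compared per kb of exonic length. In WT the RUNX transcripts were almost entirely Runx1, which made up 98.5%, 99.6% and 100% of the summed RUNX level in replicates 1, 2 and 3. In IRF8KO replicates 1, 2 and 3, Runx3 made up 89.4%, 74.8% and 77.8%. Runx1 made up 7.18%, 16.7% and 14.1% of the same sum, and Runx2 the remaining 3.44%, 8.46% and 8.13%. The identity of the leading member was thus the same in all libraries of a genotype and different between them, including WT replicate 3. The means were 99.3% ± 0.802 Runx1 in WT and 80.7% ± 7.70 Runx3 in IRF8KO (SD, n = 3 each). Dividing by coding length in place of exonic length gave 69.8% Runx3 and 23.2% Runx1 in IRF8KO. Without any length scaling, Runx3 was 79.3%, 57.6% and 61.7% of the RUNX counts in IRF8KO replicates 1, 2 and 3, with exact 95% binomial intervals of 75.8% to 82.5%, 54.5% to 60.6% and 58.2% to 65.2%.

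The summed RUNX level differed as well. It was 5.69, 5.39 and 1.58 CPM per kb in WT replicates 1, 2 and 3 and 16.9, 14.4 and 13.1 CPM per kb in IRF8KO replicates 1, 2 and 3. All IRF8KO libraries lay above all WT libraries, with means of 14.8 ± 1.92 and 4.22 ± 2.29 CPM per kb (SD, n = 3 each). Runx3 supplied most of the sum in IRF8KO, at 7.48 ± 4.33 times the level of Runx1 per length, with a range of 4.47 to 12.4. Runx1 in turn was 1.93 ± 0.183 times the level of Runx2 there. Both ratios depend on the length used. Per coding length they were 3.46 ± 2.01 and 3.42 ± 0.324, and per longest transcript 4.70 ± 2.72 and 2.90 ± 0.275 (SD, n = 3).

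**Figure D2:**
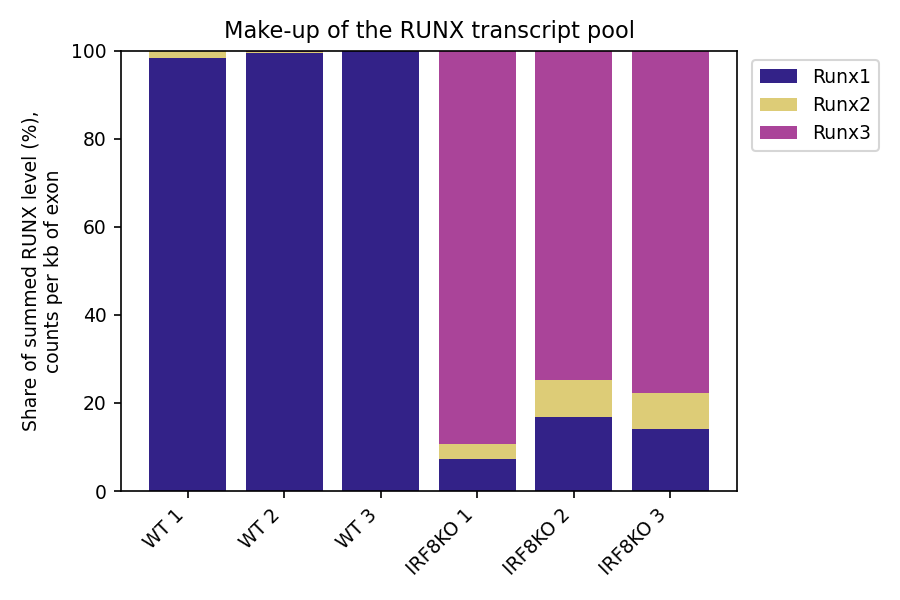
Share of the summed RUNX level (percent, counts per kb of exon) held by Runx1, Runx2 and Runx3 in each library. Runx1 fills between 98.5% and 100% of each WT bar, and Runx3 fills between 74.8% and 89.4% of each IRF8KO bar.

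Cbfb did not follow the summed RUNX level. Per length, Cbfb stood at 0.737, 0.664 and 0.701 of the RUNX sum in WT replicates 1, 2 and 3, a narrow range although WT replicate 3 had less of both. In IRF8KO replicates 1, 2 and 3 it stood at 0.0518, 0.0931 and 0.0878 of the sum. The groups did not overlap, with means of 0.701 ± 0.0367 and 0.0776 ± 0.0224 (SD, n = 3 each). The level of the ratio in WT depends on the length used, at 0.492 with coding length and 0.412 with the longest transcript, while the IRF8KO ratio was 0.100 and 0.0668 under these lengths. These are ratios of transcripts, and no protein was measured.

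**Figure D3:**
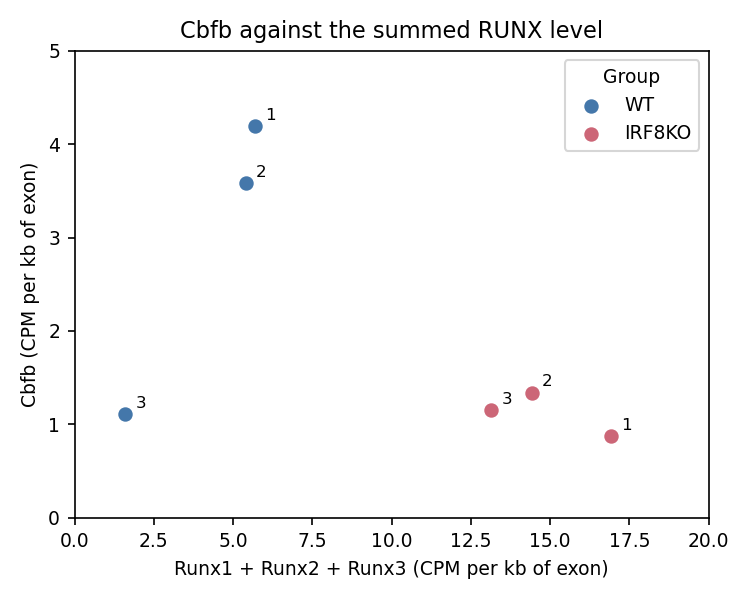
Cbfb level against the summed level of Runx1, Runx2 and Runx3 in each library, both in CPM per kb of exon. Numbers are replicates. The 3 IRF8KO libraries have a RUNX sum between 13.1 and 16.9 with Cbfb near the level of WT replicate 3, and the WT libraries have a sum between 1.58 and 5.69.

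The order of the 4 genes per exonic length was Runx3, Runx1, Cbfb, Runx2 in each of the 3 IRF8KO libraries. Cbfb and Runx2 changed places in IRF8KO replicates 2 and 3 per longest transcript, and in all 3 IRF8KO libraries when both strand columns were summed (0.926, 1.35 and 1.37 CPM per kb for Runx2 against 0.876, 1.34 and 1.15 for Cbfb in replicates 1, 2 and 3). Runx3 had between 10.2 and 15.1 CPM per kb there, and the means of the others were 1.82 ± 0.598, 1.12 ± 0.234 and 0.956 ± 0.333 CPM per kb (SD, n = 3). Runx3 stood clear of the rest, while the ranges of Runx1 and Cbfb overlapped, as did those of Cbfb and Runx2. In WT the order was Runx1 and then Cbfb in each library, at 4.18 ± 2.26 and 2.96 ± 1.63 CPM per kb with overlapping ranges. Runx2 and Runx3 came last in WT, at 0 to 4 counts, where their order cannot be told. Among all tested genes ranked per length, Runx1 stood at the 55.9 percentile in WT and the 43.2 percentile in IRF8KO, Cbfb at 49.2 and 34.2, and Runx2 at 0.988 and 30.8.

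Genes whose profile over the 6 libraries was most like that of a member were ranked among 6614 protein-coding genes, by the root mean square difference of centred log2 CPM (0 would be the same shape). For Runx1 these were Stk4, a kinase of the Hippo pathway (0.0796), Arl1, a small GTPase of the Golgi (0.0864), and Psmd12, a proteasome subunit (0.122). Stk4 had 44.0, 45.3 and 14.9 CPM in WT replicates 1, 2 and 3 and 10.4, 21.1 and 16.3 CPM in IRF8KO replicates 1, 2 and 3, with the same low value in WT replicate 3. For Cbfb they were Isoc1 (0.0639), Runx1 itself (0.142) and Hps3, a gene of lysosome-related organelles (0.143). Isoc1 had 27.2, 21.4 and 7.72 CPM in WT replicates 1, 2 and 3 and 5.62, 8.79 and 7.05 CPM in IRF8KO replicates 1, 2 and 3. Runx1 was among the 3 genes nearest to Cbfb, but Cbfb was not among the 3 nearest to Runx1. Both were low in WT replicate 3, the library whose difference from the other WT libraries rose with gene GC content. No link between the 2 genes is read from the likeness.

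For Runx3 the nearest were Emilin2, an extracellular matrix glycoprotein (0.265), Aoah, an enzyme that inactivates bacterial lipopolysaccharide (0.350), and Pilrb2, a paired immunoglobulin-like receptor (0.410). Emilin2 had 0, 0.142 and 0 CPM in WT and 104, 74.8 and 84.3 CPM in IRF8KO replicates 1, 2 and 3. For Runx2 they were Igf1, a growth factor made by macrophages (0.246), Dab2, an endocytic adaptor (0.346), and Cenpa, a centromere histone (0.388). Igf1 had 1.17, 0.496 and 0 CPM in WT and 7.86, 14.0 and 11.7 CPM in IRF8KO replicates 1, 2 and 3. Runx2 and these 3 genes all had their lowest IRF8KO value in replicate 1. The 6 libraries share depth and base composition within each profile, and the likeness is a description only.

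Genes annotated on the other strand of the members were counted as well, without the reads that fall where their exons overlap those of a member. Gm26626, which shares 106 exonic bases (0.881%) with Runx1, had 0 counts in WT and 3 in IRF8KO. Runx2os1, an antisense transcript that shares 519 bases (5.87%) with the exons of Runx2, had 0 counts in WT and 1, 4 and 10 in IRF8KO replicates 1, 2 and 3. Runx2os2 had 3 counts in WT and 26 in IRF8KO, while Runx2os3 and Gm16224, which lies in Runx3, had 0 in both groups. None of these had enough counts to be tested, and without strand their reads cannot be told from those of the sense gene where the 2 overlap. Summing both strand columns, which keep such reads, added 19, 13 and 25 counts to Runx2 in IRF8KO replicates 1, 2 and 3. Supt3, a neighbour that spans the start of Runx2 with no shared exon, had 358 counts in WT and 546 in IRF8KO.

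Lists of genes that work with RUNX proteins were set beside the members. The 6 lists held 108 genes, of which 58 were tested and 15 called, or 25.9% of those tested, at an adjusted p under 0.05 in edgeR's quasi-likelihood test (Benjamini-Hochberg over all 11041 tested genes). The share called among all tested genes was 19.1%, with 9.64% higher and 9.46% lower. Of the 15, 8 were higher and 7 lower, and the median log2 fold change of the 58 was -0.10 against -0.11 for all tested genes. Of the 8 higher genes, 3 (Itgal, Cd4 and Ntrk2) passed the filter on low counts through IRF8KO alone, so no direction is read from them. The lists were drawn up with earlier results of these libraries known, and their counts are no independent evidence of a direction.

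Corepressors of RUNX proteins had 16 of 17 genes tested, 1 higher and 2 lower, with a median log2 fold change of -0.0090. Tle3, a Groucho-type corepressor, fell from 46.7 ± 6.68 to 25.1 ± 1.65 CPM, a log2 fold change of -0.90. Aes, a short Groucho relative that lacks the repressing end, rose from 53.4 ± 21.7 to 111 ± 18.1 CPM, a log2 fold change of 1.05. Cbfa2t2, of the ETO family of corepressors, fell from 19.8 ± 8.15 to 6.03 ± 1.79 CPM, a log2 fold change of -1.70. Their adjusted p were 0.041, 0.041 and 0.023 in edgeR's quasi-likelihood test (Benjamini-Hochberg). Of the other named genes, Suv39h1, a histone methyltransferase, had a log2 fold change of 0.84 (adjusted p = 0.109 in the same edgeR test) and Hdac3, a histone deacetylase with 104 CPM in IRF8KO, had 0.23 (0.636). Both were called higher without WT replicate 3, at 1.10 and 0.61 (adjusted p = 0.021 and 0.043, same edgeR test). Runx1t1, the ETO gene, had 13 counts in WT and 5 in IRF8KO and was not tested. With RLE size factors in place of TMM, Tle3 and Aes were not called (adjusted p = 0.054 and 0.051 in edgeR, Benjamini-Hochberg). The count of 3 became 0 without WT replicate 1 or 2 or without IRF8KO replicate 1 or 3, became 1 without IRF8KO replicate 2, and became 6 without WT replicate 3.

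Coactivators and enzymes that modify RUNX proteins had 15 of 17 genes tested, 1 higher and 2 lower, with a median log2 fold change of 0.33. Smurf1, a ubiquitin ligase known to mark RUNX proteins for breakdown, fell from 110 ± 16.5 to 39.8 ± 9.48 CPM, a log2 fold change of -1.47. Ptpn11, the phosphatase SHP2, rose from 9.39 ± 1.45 to 28.1 ± 6.44 CPM, a log2 fold change of 1.58. Kat6a, the acetyltransferase MOZ that works with RUNX1, fell from 12.2 ± 6.61 to 3.40 ± 0.626 CPM, a log2 fold change of -1.83. Their adjusted p were 0.0042, 0.0094 and 0.041 in edgeR's quasi-likelihood test (Benjamini-Hochberg). Smurf1 was called in each of the 6 fits that left out 1 library, with an adjusted p of at most 0.047 in edgeR (Benjamini-Hochberg). Ptpn11 lost its call without IRF8KO replicate 3 (adjusted p = 0.070, same edgeR test), and Kat6a kept its call only without WT replicate 3, with an adjusted p of up to 0.169 in the other fits. Scaling by library size alone ended the call of Ptpn11 (log2 fold change 1.06, adjusted p = 0.110 in edgeR), and limma-voom ended that of Kat6a (adjusted p = 0.074, Benjamini-Hochberg). Stub1, a ubiquitin ligase with 42.3% of its exons shared with another gene, had a log2 fold change of 0.95 (adjusted p = 0.054, same edgeR test), and was called without WT replicate 3 (1.30, adjusted p = 0.0024), in DESeq2 (0.033) and in limma-voom (0.037). The count of 3 became 6 without WT replicate 3, 1 without IRF8KO replicate 3, and 2 without WT replicate 1 or 2 or without IRF8KO replicate 1.

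Transcription factors that bind DNA with RUNX proteins had 16 of 27 genes tested, 2 higher and 3 lower, with a median log2 fold change of -0.57. Lyl1, a bHLH factor of blood cells, rose from 17.1, 22.6 and 36.8 CPM in WT to 108, 87.2 and 120 CPM in IRF8KO. Ets1, an ETS factor known to bind DNA together with RUNX1, fell from 47.9, 55.9 and 32.7 CPM to 3.69, 13.1 and 10.4 CPM. The groups overlapped for neither, and the log2 fold changes were 2.04 and -2.31 (edgeR's quasi-likelihood test, Benjamini-Hochberg adjusted p = 0.0015 and 0.0039). Both were called in each of the 6 fits that left out 1 library. Ets2, a close relative of Ets1, went the other way, from 20.3 ± 4.68 to 48.6 ± 5.86 CPM, a log2 fold change of 1.27 (adjusted p = 0.013 in the same edgeR test). Its call was lost without WT replicate 2 or IRF8KO replicate 1 (adjusted p up to 0.078, same edgeR test), and with library size alone (log2 fold change 0.78, adjusted p = 0.105).

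The AP-1 genes Jun and Fos, which join RUNX proteins at many enhancers, were uneven within WT. Jun had 736, 1545 and 49.8 CPM in WT replicates 1, 2 and 3 and 29.5, 48.2 and 54.4 CPM in IRF8KO replicates 1, 2 and 3. Fos had 643, 880 and 0.138 CPM in WT and 21.8, 11.2 and 17.6 CPM in IRF8KO, in the same order. WT replicate 3 lay within the IRF8KO range for Jun and below it for Fos. Both were called lower, with log2 fold changes of -4.14 and -4.92 (edgeR's quasi-likelihood test, Benjamini-Hochberg adjusted p = 0.0065 and 0.030). Without WT replicate 2 the log2 fold changes were -3.16 and -4.26. Jun lost its call without IRF8KO replicate 3 (adjusted p = 0.055, same edgeR test), and Fos lost its call without WT replicate 2 or any 1 IRF8KO library (up to 0.156). In limma-voom, Fos had a log2 fold change of -1.66 and was not called (adjusted p = 0.679, Benjamini-Hochberg). Spi1, which encodes PU.1, had 506 ± 153 and 427 ± 61.5 CPM, and Lmo2, a bridge between blood factors, had 122 ± 11.3 and 106 ± 5.58 CPM. Neither was called, with log2 fold changes of -0.24 and -0.21 (adjusted p = 0.620 and 0.610, same edgeR test), but with library size alone Spi1 was called lower, at -0.71 (adjusted p = 0.013), and without WT replicate 3 its sign turned, at 0.059. The list's count of 5 became 8 without WT replicate 3 and 3 without WT replicate 2 or IRF8KO replicate 1 or 3.

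Textbook targets of the RUNX proteins were mostly too low to test, with 6 of 18, 1 of 17 and 7 of 16 genes tested for RUNX1, RUNX2 and RUNX3. The RUNX1 list had 2 genes higher and 0 lower, with a median of -0.29, and the RUNX3 list had 3 higher and 0 lower, with a median of 0.84. Itgal, Cd4 and Ntrk2 passed the filter on low counts through IRF8KO alone and would not have entered the test at their WT levels, so no direction is read from their calls, and with at least 10 counts required in every library neither list had a call. Itgal, the integrin chain of LFA-1 that sits in both lists, rose from 0, 1.84 and 3.45 CPM in WT replicates 1, 2 and 3 to 120, 76.7 and 65.9 CPM in IRF8KO replicates 1, 2 and 3. Its log2 fold change was 5.54, or 6.17 without WT replicate 3 (edgeR's quasi-likelihood test, Benjamini-Hochberg adjusted p = 2.0e-04). Pf4, the platelet chemokine that RUNX1 is known to activate in megakaryocytes and that also marks border macrophages, rose from 1.79 ± 0.935 to 1881 ± 321 CPM, a log2 fold change of 9.97 (adjusted p = 1.1e-06, same edgeR test), or 8.85 with the GC and length offset. Csf1r, the growth factor receptor of microglia and a target of RUNX1, had 22937 ± 8325 and 14991 ± 3792 CPM and was not called (log2 fold change -0.61, adjusted p = 0.338 in edgeR, Benjamini-Hochberg). Exons of Csf1r are shared with another gene over 15.1% of their length. With scaling by library size alone, Csf1r was called lower, at -1.08 (adjusted p = 0.0040, same edgeR test). Prkcq, a T cell kinase with 38 counts in WT and 5 in IRF8KO, had a log2 fold change of -2.84 (adjusted p = 0.133, same edgeR test), or -6.66 without IRF8KO replicate 3. Prkcq passed the filter on low counts through WT alone, so no direction is read from it.

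Of the RUNX3 list, Cd4, which RUNX3 is known to silence in CD8 T cells, had 0 counts in WT and 4.17, 3.32 and 4.45 CPM in IRF8KO replicates 1, 2 and 3. It was at least 34.6-fold higher, against a floor of 3 counts over the WT libraries (edgeR's quasi-likelihood test, Benjamini-Hochberg adjusted p = 0.0024). Ntrk2, a neurotrophin receptor that RUNX3 is known to silence in sensory neurons and that astrocytes and neurons also make, rose from 0.697 ± 0.589 to 7.97 ± 1.28 CPM, a log2 fold change of 3.60 (adjusted p = 0.011, same edgeR test), which ran from 2.94 without WT replicate 2 to 4.64 without WT replicate 3. Itgae, the integrin chain CD103, had 3.35 ± 1.64 and 1.08 ± 0.586 CPM and was not called (adjusted p = 0.162, same edgeR test). Itgae passed the filter on low counts through WT alone, so no direction is read from it. Of the T cell effector genes in the list, Cd8a, Gzmb, Ifng, Eomes and Tbx21 had 0 counts in all 6 libraries and Prf1 had 10 counts in IRF8KO. The RUNX2 list had Vegfa alone tested, with a log2 fold change of 2.90 (adjusted p = 0.068, same edgeR test) from 11 counts in WT and 116 in IRF8KO. It ranged from 2.24 without WT replicate 2 to 4.66 without WT replicate 1. Vegfa too passed the filter on low counts through IRF8KO alone, so no direction is read from it. The bone genes Bglap, Ibsp, Sp7, Col1a2 and Dmp1 had 0 counts in all libraries. The call of Pf4, which reached the filter in WT as well, held in each of the 6 fits that left out 1 library.

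**Figure D4:**
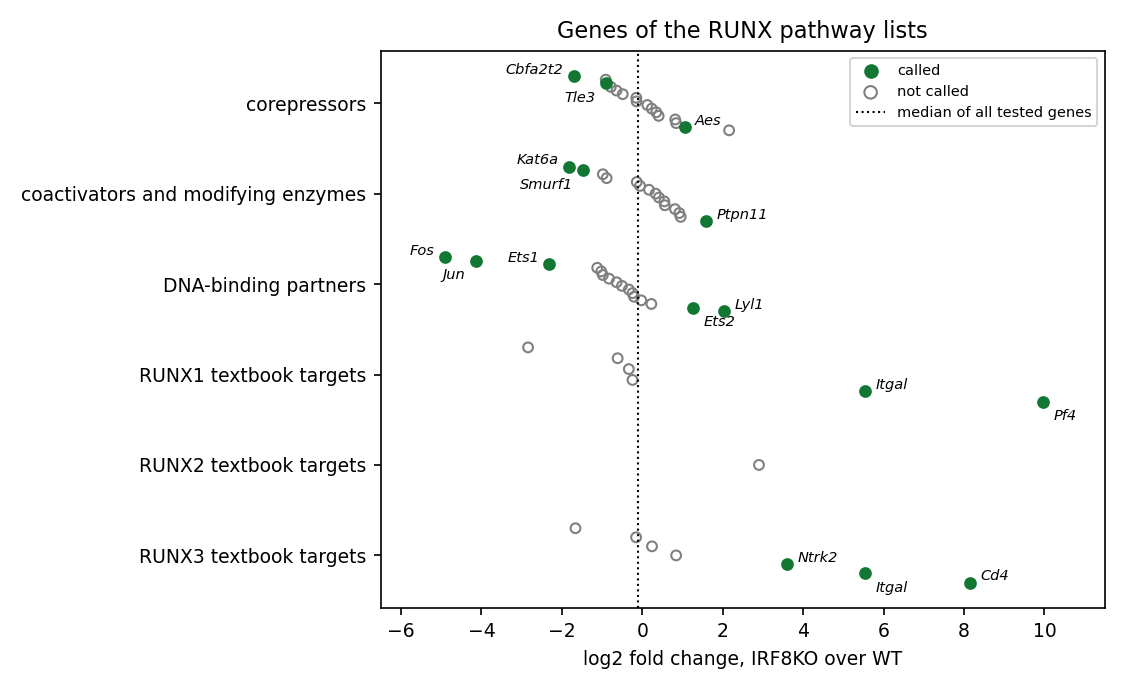
Log2 fold change (IRF8KO over WT) of each tested gene in the 6 RUNX pathway lists, filled where called by edgeR's quasi-likelihood test and named. The dotted line is the median of all tested genes, -0.11. Called genes lie on both sides for corepressors, coactivators and DNA-binding partners, while the called RUNX1 and RUNX3 targets are at most 3.45 CPM in every WT library (Itgal, Pf4, Cd4 and Ntrk2) and lie to the right, and all of them but Pf4 passed the filter on low counts through IRF8KO alone.

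Other cells that make RUNX genes were looked for through their markers. The 15 markers of T and NK cells, which use Runx3, summed to between 0.642 and 3.58 CPM in IRF8KO and between 0 and 1.63 CPM in WT. Cd3e, Cd3g, Cd2, Cd8a, Ncr1 and Gzma had 0 counts in all 6 libraries. The list had 24 counts in WT and 76 in IRF8KO. Thy1 (4, 12 and 4), Klrb1c (0, 21 and 4), Prf1 (0, 0 and 10) and Nkg7 (0, 5 and 0) had counts in IRF8KO alone. Lck had 1, 21 and 0 counts in WT and 0, 0 and 11 in IRF8KO, and the rest had at most 3 in any library. The part of T and NK cells in the level of Runx3 was not tested. The 9 markers of fibroblasts and osteoblasts, which use Runx2, summed to at most 0.161 CPM in IRF8KO and 0.973 CPM in WT. Markers of dendritic cells, which use Runx3 as well, summed to between 13.7 and 19.6 CPM in WT and between 33.3 and 38.9 CPM in IRF8KO, with 1 of 3 tested genes higher (9.64% of all tested genes were) and Clec9a, Cd209a and Ccr7 at 0 in both groups. The higher one, named after its values were seen, was Zbtb46, a factor of conventional dendritic cells, which rose from 4.62 ± 1.23 to 25.7 ± 4.16 CPM (SD, n = 3; edgeR's quasi-likelihood test, Benjamini-Hochberg adjusted p = 0.0014). The other 9 genes of the list summed to between 10.4 and 14.6 CPM in WT and between 9.60 and 12.1 CPM in IRF8KO, so the higher sum came from Zbtb46. Itgax, an integrin chain of dendritic cells and other myeloid cells, had 6.87 ± 4.03 and 9.08 ± 0.683 CPM, and Flt3, the receptor of their growth factor, had 0.926 ± 0.686 and 0.742 ± 0.269 CPM (SD, n = 3 each). The part of dendritic cells in the level of Runx3 was not tested.

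Markers of border-associated macrophages, the macrophages of the meninges and vessels, had a higher sum in IRF8KO. The 12 genes summed to between 612 and 835 CPM in WT and between 3819 and 5036 CPM in IRF8KO, and Lyve1 and Cd209f were at 0 in both groups. Stab1 made up most of the WT sum, at 692 ± 116 CPM. Stab1 and Pf4 made up most of the IRF8KO sum, at 1950 ± 310 and 1881 ± 321 CPM. Folr2, which was not tested, had 0, 0 and 2 counts in WT and 0, 1 and 1 in IRF8KO. Clec10a, also not tested, had 0 counts in WT and 0, 2 and 11 in IRF8KO. All 8 tested genes were called higher, against 9.64% of all tested genes, but 3 of the 8, Cd163, Ms4a7 and F13a1, passed the filter on low counts through IRF8KO alone. The part of these cells in the levels of Runx2 and Runx3 was not tested. Markers of microglia summed to between 39358 and 64720 CPM in WT and between 28645 and 40374 CPM in IRF8KO. Of the 10, 5 were lower and 1 was higher, against 9.46% and 9.64% of all tested genes, and Sall1, 1 of the 5, had 0 counts in IRF8KO and passed the filter through WT alone. Their part in the levels of Runx1 and Cbfb was not tested.

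The remaining lists are given for the genes above that such cells also make. Monocyte markers summed to between 6.62 and 27.1 CPM in WT and between 10.3 and 60.6 CPM in IRF8KO, with F10 at 0 in both groups. The highest sum was in IRF8KO replicate 2, where Chil3, Hp, Plac8 and Ly6c2 had 386, 104, 52 and 31 counts. These 4 genes had at most 6 counts in the other IRF8KO libraries. Nr4a1 made up most of the remaining sum, at 14.9 ± 9.87 CPM in WT and 15.5 ± 12.5 CPM in IRF8KO. Neutrophil markers summed to at most 0.142 CPM in WT and between 2.06 and 358 CPM in IRF8KO. The part of neutrophils and monocytes in the RUNX levels was not tested. Markers of megakaryocytes and platelets, which make Pf4, summed to between 32.5 and 59.8 CPM in WT and between 30.8 and 35.8 CPM in IRF8KO. Gp9 made up most of both sums, at 42.8 ± 14.5 CPM in WT and 31.4 ± 2.34 CPM in IRF8KO. Ppbp had 0 counts in WT and 5, 26 and 10 counts in IRF8KO replicates 1, 2 and 3. Treml1 went from 0.985 ± 0.437 to 0.300 ± 0.306 CPM. The part of platelets in the level of Pf4 was not tested. Mast cell markers summed to at most 0.321 CPM in any library. Markers of B and plasma cells summed to between 519 and 859 CPM in WT and between 29.2 and 41.4 CPM in IRF8KO, with Ms4a1, Pax5 and Jchain at 0 in both groups. Markers of neurons and astrocytes, which make Ntrk2, reached at most 8.27 and 90.0 CPM in WT against at most 25.9 and 189 CPM in IRF8KO, with no overlap between the groups, and their part in the rise of Ntrk2 was not tested. Oligodendrocyte markers summed to between 283 and 693 CPM in WT and between 470 and 679 CPM in IRF8KO, and endothelial markers to between 18.6 and 30.2 CPM and between 1.77 and 9.98 CPM. Both sums joined genes that went opposite ways. Mbp went from 152 ± 116 to 437 ± 95.2 CPM, Mag from 98.8 ± 35.9 to 65.2 ± 5.96 CPM, and Cnp, called lower, from 186 ± 79.8 to 45.2 ± 14.8 CPM. Pecam1 went from 19.1 ± 1.70 to 1.95 ± 1.25 CPM and Kdr from 5.41 ± 4.59 to 0.0897 ± 0.155 CPM. Flt1 had 0 counts in WT and 5, 88 and 59 in IRF8KO.

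**Figure D5:**
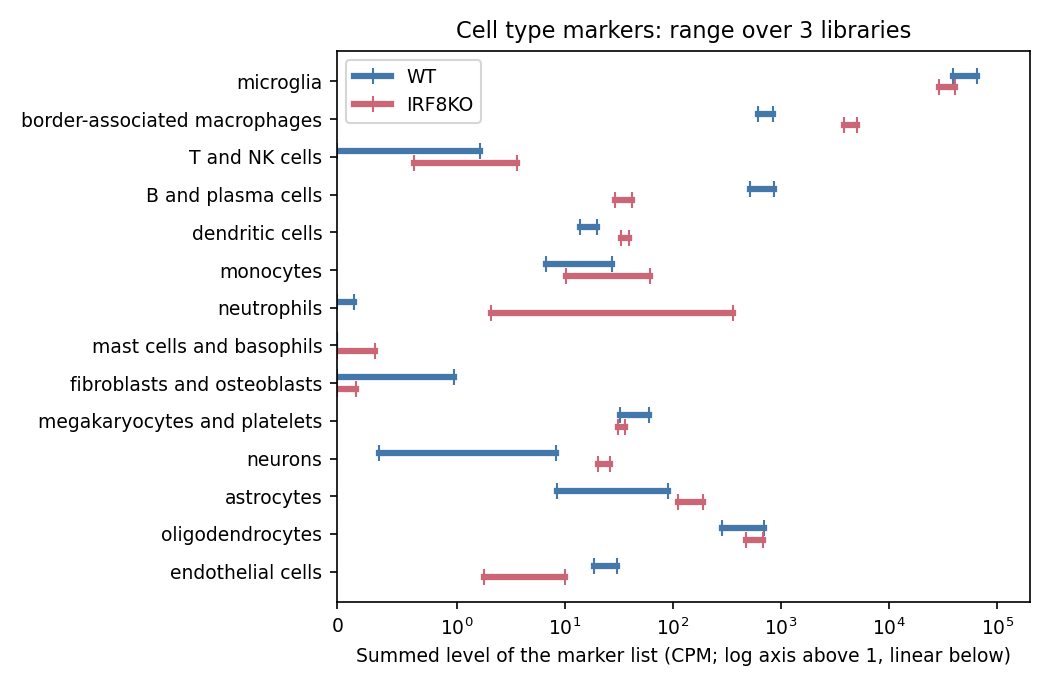
Range of the summed level (CPM) of each marker list over the 3 libraries of each group, on an axis that is linear below 1 and logarithmic above. T and NK cell markers stay at or below 3.58 CPM in every library, while border-associated macrophage markers span 3819 to 5036 CPM in IRF8KO and 612 to 835 CPM in WT.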

How the data were processed

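The authors deposited whole-number counts of reads per gene for each library, in the layout of the aligner STAR. The submitters' processing notes name bcl2fastq, STAR 2.5.2b, Picard 2.17.11, Subread and featureCounts and the build mm10, with no role or order; the annotation release is not given in the sources used here. The count that ignores strand was used. The 4 summary lines stayed out of library sizes (reads in no gene made up 2.44% to 7.70%, reads on several genes 8.20% to 10.8%). Of 49585 identifiers, 49326 matched GENCODE M21 (GRCm38), the source of symbols, gene coordinates and exonic lengths, and 259 did not. Promoters are from RefSeq.

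The fit used edgeR 4.0.16 in R 4.3.3 over all 6 libraries: default expression filter (minimum count 10), TMM scaling, genotype as the single term, quasi-likelihood F test, Benjamini-Hochberg adjustment, called under 0.05. It was tested on simulated data, where most of the changed genes were not called, so a gene not called here may still differ. P-values measure the spread between the 3 mice of a group. The members and all lists were chosen with earlier results of these data known. Named list genes are the 4 with the smallest p per list and those with at least 100 CPM in a group; a few untested genes were named after their counts were seen, and some list and marker genes are not reported here. Likeness was ranked over tested protein-coding genes with at least 10 CPM in 1 group, with 0.5 CPM added before the log. Exact Poisson intervals are at 95%. The 19 alternatives cover scaling, filters, DESeq2 1.42.0, limma-voom (limma 3.58.1), strand columns, a GC and length offset, a replicate block and leaving out each library. The summed strand columns were added after seeing the data.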

Additional observations from a re-analysis of the deposited data

How the results depend on the processing

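Runx1, Runx2, Runx3 and Cbfb kept their direction in every alternative in which they were fitted; Runx2 and Runx3 could not be fitted with at least 10 counts required in every library. Over the fits that left out 1 library, log2 fold changes ran from -1.52 to -0.94 for Runx1, 4.53 to 7.18 for Runx2, 9.88 to 11.87 for Runx3 and -1.73 to -1.08 for Cbfb. The Runx3 value (10.20) depends on the prior count and was 9.76 with library size alone, 10.46 in DESeq2, 9.37 in limma-voom, 9.17 on the first strand column and 11.07 on the second. Cbfb (-1.39) was -0.49 with the GC and length offset and -0.47 with the replicate block and the offset; the cause was not tested.

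Shares follow the length that divides them. In IRF8KO, Runx1 was 12.7% of the RUNX level per exonic length, 23.2% per coding length and 18.6% per longest transcript, and Runx3 was 80.7% and 69.8% per coding length. The Cbfb ratio in WT (0.701) was 0.492 and 0.412 under these lengths, 0.639 and 0.626 on the strand columns and 0.634 with both summed.

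Calls over all genes (2109, 1064 higher and 1045 lower) ranged from 910 to 4003, from 524 to 2168 and from 386 to 1835 when 1 library was left out, with the extremes at IRF8KO replicate 3 and WT replicate 3. Scaling by library size alone gave 651 higher and 1908 lower, so 25.4% of calls were higher against 50.5%, and moved the all-gene median to -0.61. Calls among corepressors (3) were 1 with RLE factors and 0 to 6 when 1 library was left out, coactivators (3) 5 in DESeq2 and 1 to 6, and DNA-binding partners (5) 3 to 8. RUNX1 targets (2) were 5 with library size alone, 4 with no filter and 0 with at least 10 counts in every library. RUNX3 targets (3) were 0 under that stricter filter, which leaves fewer genes to test. RUNX2 targets were 0, with 1 gene, Vegfa, at an unadjusted p under 0.05 and tested through its IRF8KO counts alone. They were 1 in DESeq2, limma-voom, the replicate block and the first strand column, 2 with no filter, and 0 to 1 when 1 library was left out. Direction turned for Hdac3 (-0.22) with library size alone and for Spi1 without WT replicate 3 (-0.41 to 0.059 over the fits without 1 library). Scaling by library size alone called Spi1 (-0.71, adjusted p = 0.013) and Csf1r (-1.08, adjusted p = 0.0040) lower in edgeR (Benjamini-Hochberg), and Aes lost its call there (0.051). Tle3 also lost its call with Apoe left out (0.056), no filter (0.068) and first strand counts (0.053), and Kat6a with Apoe left out (0.052) and first strand counts (0.074).

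Replicate numbers are shared between the groups in the labels, which do not state that they mark pairs, so the main fit had no block. Deviations from the group mean had correlations of -0.32, 0.37 and 0.14 between same-numbered samples (replicates 1, 2 and 3). Between differently numbered samples they ran from -0.48 to 0.42. Deviations within a group of 3 sum to 0, so these correlations cannot decide whether the numbers mark pairs. With the replicate block 2353 genes were called, and the log2 fold changes were -1.05 for Runx1, 5.35 for Runx2, 10.15 for Runx3 and -1.22 for Cbfb. Among the named list genes, Tle3 and Fos were not called with the block (adjusted p = 0.060 and 0.065 in edgeR, Benjamini-Hochberg), and Fos was not called with the block and the GC and length offset (0.208). Stub1 and Vegfa, not called without a block, were called with it (adjusted p = 0.035 and 0.041, same edgeR test). Neither was called with the block and the offset (0.063 and 0.059). Depth limits Runx2, Runx3 and Cd4 in WT. Runx3 and Cd4 had 0 counts in the library of 3658917 counts, which allows up to 0.584 CPM. Runx2 had 4 counts there, or 0.778 CPM (exact 95% counting interval 0.212 to 1.99 CPM).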

Other observations

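The count that ignores strand drops a read where an antisense gene lies over an exon, and the strand columns keep it. Summing both strand columns gave 112, 360 and 248 counts of Runx1 in IRF8KO replicates 1, 2 and 3, which is 21, 37 and 43 more than the count that ignores strand, and 42, 75 and 16 more in WT replicates 1, 2 and 3. For Runx2 the sum was 51, 133 and 112 in IRF8KO, or 19, 13 and 25 more, and these reads made up 37.3%, 9.77% and 22.3% of the summed count. In WT the sum for Runx2 was the same as the count that ignores strand. Runx3 gained at most 3 counts in any library and Cbfb gained 0. Gm26626 and Runx2os1 are the antisense genes whose exons overlap those of Runx1 and Runx2.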
